A study of Mus musculus with 20 samples.

Results

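The genes described here are those in which the Nox4-/- libraries lay between the libraries of both wild type lines. A gene was taken when its expected counts averaged at least 10 over the 20 libraries and when its counts relative to the library total (CPM, scaled with the trimmed mean of M-values, TMM) in all 10 Nox4-/- libraries were strictly between those of all 5 libraries of one wild type line and all 5 of the other. Of 16516 genes with that mean count, 53 (0.321%) met the rule, 37 with WT#1-4 as the highest group and 16 with WT#20D-17 as the highest. The members were thus chosen by their measured values, so the order of the lines and the differences between each wild type line and the knockouts are given below as descriptions, and counts of calls in them for size only. Only the differences between the knockout lines and the changes over days, which the rule limits in size but does not set, were tested as results.

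The study followed mouse induced pluripotent stem cells (iPSCs) as embryoid bodies (EBs), which are cell aggregates that form derivatives of the germ layers when factors of self-renewal are withdrawn. The wild type line WT#1-4 and the knockouts Nox4-/-#5-8 and Nox4-/-#5-23 are clones picked after embryonic fibroblasts were transduced with viruses for Oct4, Sox2, Klf4 and c-Myc, while for WT#20D-17, labelled as wild type, the derivation is not given in the sources used here. All 4 lines were kept on mitomycin C-treated fibroblast feeders with leukemia inhibitory factor before EBs were formed in hanging drops and plated. mRNA was sequenced in 1 library of each line on days 0, 3, 5, 7 and 14, at 20294968 to 27708023 counts a library. The 5 libraries of a line are not independent, and with 2 lines on each side the line and the genotype cannot be told apart in any single pair.

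Nox4 encodes an NADPH oxidase that makes hydrogen peroxide. A comparison of knockout with wild type cells normally takes a shift to one side of the wild type as its readout. Clonal iPSC lines are also known to differ from each other without any engineered change, in the sites of viral insertion, in chromosome number, in DNA methylation and in how readily they leave pluripotency, so that a knockout line can be above one wild type line and below another. The 53 genes are those with this order of measured values in every library, and its cause was not tested.

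The target of the deletion was read first. Nox4 had 7, 22, 21, 12 and 3 counts on days 0, 3, 5, 7 and 14 in WT#1-4 and 64, 165, 188, 203 and 56 in WT#20D-17. It had at most 2 counts in any library of Nox4-/-#5-8 and 0 in every library of Nox4-/-#5-23, which allows up to 3 counts in each. The counts of every wild type library were above those of the knockouts, though the 3 counts of WT#1-4 on day 14 were not resolved from the 2 counts of Nox4-/-#5-8 on day 3 at this depth. Nox4 is not among the 53 genes.

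Because the members were defined by the level of a transcript, the promoters of the genes with the widest separation are shown first. RefSeq promoters on GRCm38.p6, from 250 bases before to 50 bases after the annotated start, were matched to 38 of the 53 genes. Those of Nyap2 (chr1:81076700-81076999, plus strand) and Gprin3 (chr6:59426257-59426556, minus strand), the protein-coding genes with the widest separation and WT#1-4 highest, of Pced1b (chr15:97246857-97247156, plus strand), the protein-coding gene with the widest separation and WT#20D-17 highest, and of Acvr1c (chr2:58357709-58358008, minus strand) are printed 5′ to 3′ with each CG dinucleotide, the site of DNA methylation in mammals, in capitals.
Nyap2: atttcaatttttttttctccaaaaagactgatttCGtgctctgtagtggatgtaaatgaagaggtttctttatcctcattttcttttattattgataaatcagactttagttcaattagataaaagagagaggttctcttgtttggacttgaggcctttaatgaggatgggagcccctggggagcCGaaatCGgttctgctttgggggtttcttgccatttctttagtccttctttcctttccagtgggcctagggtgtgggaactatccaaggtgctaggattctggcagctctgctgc
Gprin3: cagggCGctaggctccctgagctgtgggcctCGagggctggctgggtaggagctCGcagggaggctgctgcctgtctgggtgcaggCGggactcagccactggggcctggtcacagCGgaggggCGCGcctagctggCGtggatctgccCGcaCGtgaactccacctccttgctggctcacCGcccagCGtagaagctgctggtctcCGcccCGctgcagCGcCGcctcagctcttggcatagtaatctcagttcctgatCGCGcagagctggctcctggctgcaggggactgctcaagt
Pced1b: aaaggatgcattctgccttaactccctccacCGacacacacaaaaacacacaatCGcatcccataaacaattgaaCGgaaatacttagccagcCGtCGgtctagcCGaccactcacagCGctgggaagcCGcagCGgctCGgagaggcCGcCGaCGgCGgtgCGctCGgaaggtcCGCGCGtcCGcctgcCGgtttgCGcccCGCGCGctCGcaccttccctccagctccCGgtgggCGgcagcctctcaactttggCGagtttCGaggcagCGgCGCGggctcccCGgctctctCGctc
Acvr1c: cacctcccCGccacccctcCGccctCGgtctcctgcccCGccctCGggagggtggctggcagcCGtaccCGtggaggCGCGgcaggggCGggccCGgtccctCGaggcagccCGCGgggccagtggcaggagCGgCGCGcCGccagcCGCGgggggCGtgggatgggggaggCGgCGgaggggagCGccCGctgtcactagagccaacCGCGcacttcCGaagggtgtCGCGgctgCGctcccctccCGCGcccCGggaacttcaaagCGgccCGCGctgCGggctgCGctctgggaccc

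The 4 promoters differed widely in CG content. Nyap2 held 3 CG dinucleotides in 300 bases, Gprin3 18, Pced1b 35 and Acvr1c 39. Over the 38 matched genes the median was 11.5, beside 20 over the 11656 promoters matched among all tested genes, and 12 of the 38 (31.6%) held fewer than 6, beside 11.4% of all tested promoters and 16.4% of those of genes in which the wild type lines did not overlap. The CG-poor promoters were 10 of 25 with WT#1-4 highest and 2 of 13 with WT#20D-17 highest, and the difference was not tested. The windows of Sh2d6, Insc, Gm2065 and Zfp981, the last of them CG-poor, were matched at 1671 bases or more from the start of the gene. The letters TATAAA, on either strand, were found in 8 of the 38 windows (21.1%, beside 7.16% of all tested promoters), those of Gm31562, Mbnl1, Trpc4, Gm33699, Shox2, Ms4a4b, Serpinb3a and Vegfd, all of them genes with WT#1-4 highest. CCAAT was found in 17 of the 38 (4545 of the 11656), GGGCGG in 52.6% (63.6%) and CACGTG in 5.26% (9.81%), on either strand. These matches describe the windows only, and methylation was not measured. Among the genes without a matched promoter were Pdp1, Osbpl1a, Sike1, Ptprv, Popdc3, Gm48161, Sybu, Tmem64, Rfxap, Colgalt2, Rasal1, 4933439N14Rik and Gm4322.

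The wild type lines themselves were far apart. Their libraries did not overlap in 4658 of the 16516 genes (28.2%), with WT#1-4 above in 2248 and WT#20D-17 above in 2410. Among the other strict orders of the 3 groups, the knockouts were lowest and WT#20D-17 highest in 93 genes, in 52 genes WT#20D-17 was below WT#1-4 and the knockouts were above both, in 9 the knockouts were lowest and WT#1-4 highest, and in 3 WT#1-4 was below WT#20D-17 and the knockouts were above both. All Nox4-/- libraries were above all wild type libraries in 191 genes and below all of them in 261. These counts are not on like terms with the 53. The 191 and 261 genes do not need the wild types to be apart. More of the possible orders also put the knockouts outside the wild types than between them. In the 53, the median absolute difference between the wild type means was 3.15 on the scale of log2(CPM + 1), beside 1.49 in the other 4605 genes without overlap and 0.51 in all tested genes. The rule itself favours wide differences, since 10 libraries must lie between them. The spread over days was much as elsewhere, with a median SD of 0.35 in the 53 genes and 0.35 in all tested genes.

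**Figure D1:**
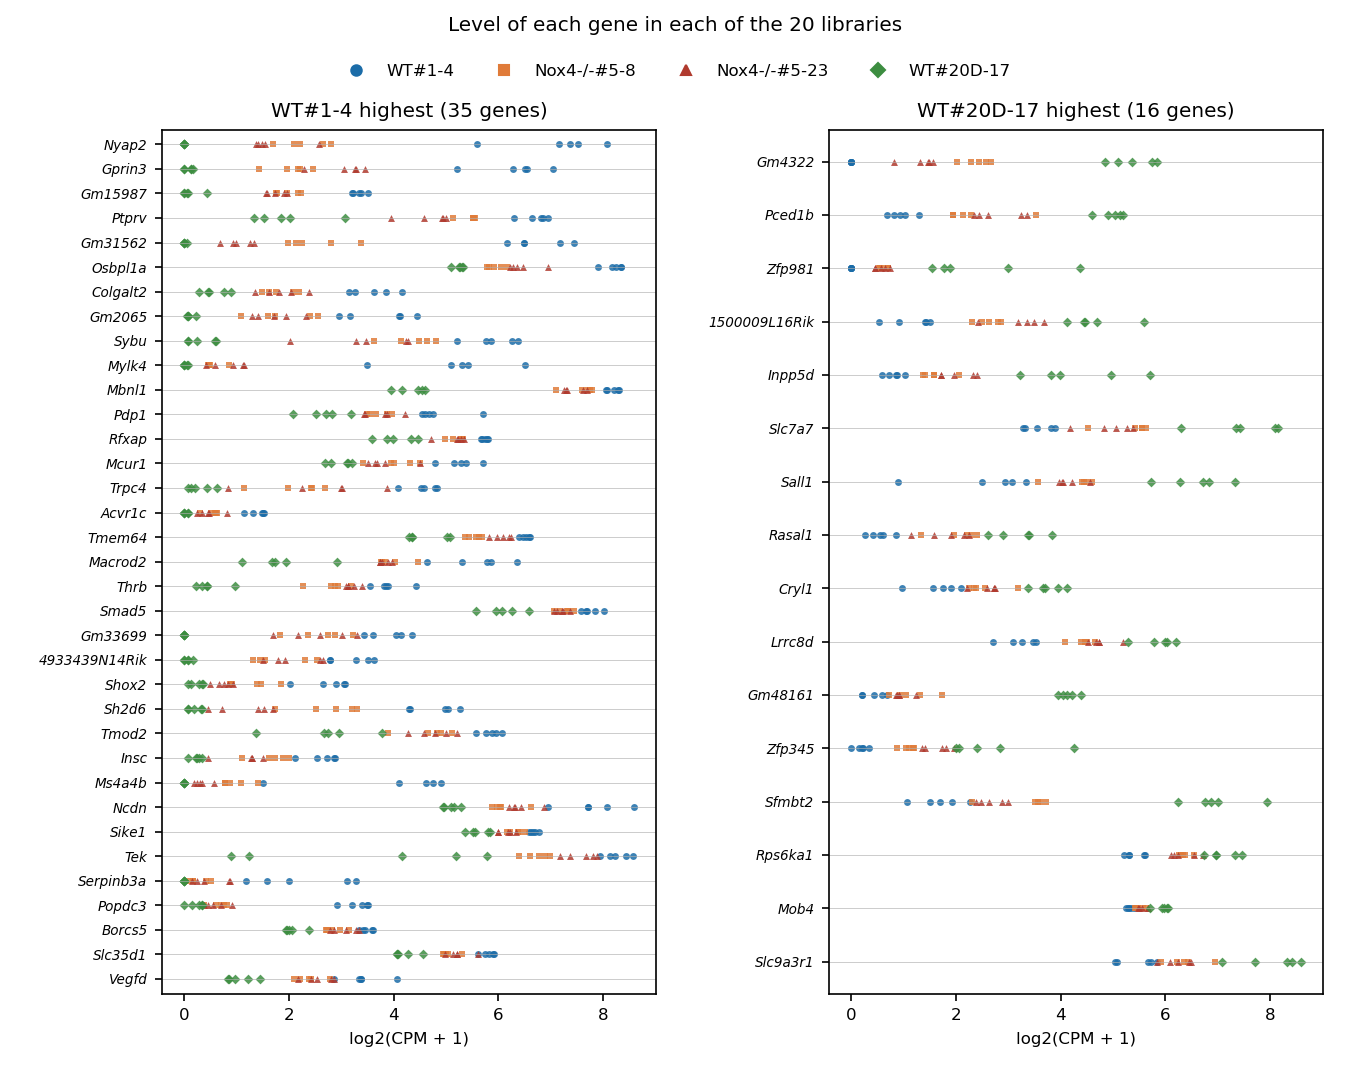
Level of 51 of the 53 genes, as log2(CPM + 1) on the horizontal axis, in each of the 20 libraries, with 1 point per library, coloured and shaped by line; the left panel holds 35 genes with WT#1-4 highest and the right panel 16 with WT#20D-17 highest, each ordered from the widest separation at the top. In every row the 10 Nox4-/- points sit between the points of the wild type lines, with clear space on both sides in the top rows and nearly none in the bottom rows.

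The separation was measured by the smaller of the gaps that divide the Nox4-/- libraries from each wild type line, on the scale of log2(CPM + 1). Its median was 0.15, and it reached 1.38 in Nyap2. The members that only just met the rule were Vegfd, a growth factor for lymphatic endothelium, at 0.0026, Slc35d1, a transporter of nucleotide sugars, at 0.0082, and Slc9a3r1, a scaffold protein that binds ion transporters, at 0.0084. The genes that just missed it were Unc5a, a netrin receptor, at -0.0027, Mogat1, an acyltransferase of lipid synthesis, at -0.0038 and Stk38, a protein kinase, at -0.0063. A further 82 genes were tied at the boundary, as happens at 0 counts, and 1 gene had the pattern with a mean count under 10.

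Among the 37 genes with WT#1-4 highest, Nyap2 and Gprin3 had the widest separation. Nyap2 encodes an adaptor that links tyrosine phosphorylation to phosphoinositide 3-kinase in neurons and lies on chr1:81076950-81341764. Its CPM in WT#1-4 was 269, 166, 184, 143 and 47.2 on days 0, 3, 5, 7 and 14. It was 2.24, 3.27, 5.31, 5.97 and 3.62 in Nox4-/-#5-8, 1.64, 1.79, 1.89, 1.6 and 4.96 in Nox4-/-#5-23 and 0 on every day in WT#20D-17. The mean of WT#1-4 was 50.1 times that of the knockouts, and the knockout mean was at least 24.0-fold higher than WT#20D-17, taken at 3 counts in each library. The level in WT#1-4 was lowest on day 14 and was still above every knockout library.

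Gprin3, a member of a family that promotes neurite outgrowth downstream of G proteins, lies on chr6:59347226-59426294. It had 35.9, 90.2, 131, 93.1 and 76.7 CPM in WT#1-4 over the same days. In Nox4-/-#5-8 it had 2.91, 3.48, 3.63, 4.48 and 1.67 CPM, and in Nox4-/-#5-23 3.87, 7.33, 8.58, 8.66 and 9.88. WT#20D-17 had at most 0.123 CPM, which is 3 counts. Here the knockout lines were also ordered, with Nox4-/-#5-23 higher on all 5 days, though not past the threshold of a false discovery rate (FDR) under 0.01 (log2 fold change 1.23 ± 0.31 SE, FDR of 0.0194 from edgeR's quasi-likelihood test).

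Acvr1c encodes ALK7, a type I receptor for Nodal and activin ligands, and lies on chr2:58267453-58357895. It was among the weakest signals of the set, with 32, 47, 40, 48 and 36 counts in WT#1-4, or 1.22 to 1.87 CPM. Nox4-/-#5-8 had 0.519, 0.503, 0.421, 0.53 and 0.232 CPM and Nox4-/-#5-23 0.186, 0.367, 0.378, 0.755 and 0.255. WT#20D-17 had 1 count on days 3 and 5 and 0 on the other days. The 95% Wilson interval of a single library was wide at this depth. It ran from 0.471 to 1.21 CPM for the highest knockout library and from 0.861 to 1.72 for the lowest WT#1-4 library. The lowest knockout library (0.0794 to 0.435) and the highest WT#20D-17 library (0.00769 to 0.247) overlapped too. The strict order of the libraries at either boundary was thus not resolved by their counts. These intervals cover counting error only. Smad5, which carries BMP signals to the nucleus, was the other member of the TGF-beta pathway, with 192 to 259 CPM in WT#1-4, 134 to 173 in Nox4-/-#5-8, 134 to 165 in Nox4-/-#5-23 and 46.7 to 95 in WT#20D-17.

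Of 44 tested genes on a list of TGF-beta family ligands, receptors and SMADs, these 2 (4.55%) were members, beside 0.321% of all tested genes. The list was chosen with earlier results of these data known, so nothing is read from this share. By edgeR's exact test over days pooled, at an FDR under 0.01, 3 of the 44 were higher and 11 lower in the knockouts than in WT#1-4 (504 and 1036 of the 16516 tested genes, 9.32% in both directions), and 6 were higher and 25 lower than in WT#20D-17 (2895 and 3677 of all, 39.8%). The means of both knockout lines lay between those of the wild types in 10 of the 44 (22.7%, beside 20.4% of all tested genes), a looser order than that in every library. Among these, Tgfb3, a TGF-beta ligand, averaged 43.0 CPM in WT#1-4, 7.19 and 6.70 in the knockout lines and 4.25 in WT#20D-17, and Bmpr1a, a BMP receptor, averaged 133, 136, 143 and 210 CPM in that order. Other genes had another order. Nodal, a ligand whose receptors include the product of Acvr1c, averaged 5.06 CPM in WT#1-4, 0.166 and 0.222 in the knockout lines and 56.6 in WT#20D-17, so the knockouts were on the low side of both. Smad1, a close relative of Smad5, averaged 33.3 CPM in WT#1-4, 19.4 and 23.6 in the knockout lines and 40.5 in WT#20D-17. Smad9, of the same group, averaged 22.9, 22.9, 26.6 and 2.81 CPM in that order of lines.

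Among the other genes with WT#1-4 highest and a wide separation, Ptprv, named for a receptor-type tyrosine phosphatase and annotated here as a processed transcript, had 78.4 to 123 CPM in WT#1-4, 34.1 to 46.4 in Nox4-/-#5-8, 14.4 to 30.9 in Nox4-/-#5-23 and 1.52 to 7.38 in WT#20D-17. Osbpl1a, an oxysterol-binding protein of endosomes, had 240 to 326, 54.4 to 70.8, 73.7 to 123 and 33.4 to 39.2 CPM in the same order of lines. Colgalt2, a galactosyltransferase that modifies collagen, had 7.87 to 17, 1.81 to 3.56, 1.53 to 4.23 and 0.21 to 0.843 CPM. Ptprv was higher in Nox4-/-#5-8 and Osbpl1a in Nox4-/-#5-23, with no overlap of the knockout lines, while in Colgalt2 they overlapped. Sybu encodes syntabulin, which couples cargo to kinesin motors, and had 36.2 to 82.1 CPM in WT#1-4 and at most 0.517 in WT#20D-17, with 3.05 to 27.1 in the knockouts. Mylk4, a myosin light chain kinase, had 10.3 to 90.9 CPM in WT#1-4 and 0.335 to 1.2 in the knockouts, against at most 0.0525, or 1 count, in WT#20D-17. Its knockout libraries therefore rested on few counts.

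Some members were expressed well in all 4 lines or in 3 of them. Mbnl1, a muscleblind regulator of alternative splicing, had 267 to 317 CPM in WT#1-4, 138 to 220 in the knockouts and 14.4 to 23.4 in WT#20D-17. Pdp1, the phosphatase that activates pyruvate dehydrogenase, had 22.3 to 51.3, 9.85 to 17.5 and 3.2 to 8.12 CPM. Rfxap, a subunit of the factor that drives MHC class II genes, had 50.1 to 54.8, 25.3 to 39.9 and 11 to 21.2. In Mbnl1 the step to WT#20D-17 was wider than that to WT#1-4, and in Pdp1 the libraries of WT#1-4 themselves spanned a wide range, with day 14 the highest. Mcur1, a regulator of the mitochondrial calcium uniporter, had 26.6 to 51.4, 9.6 to 21.9 and 5.46 to 8.17 CPM. Trpc4, a cation channel, had 15.9 to 27.4, 0.781 to 13.7 and at most 0.533 CPM. In Trpc4 the knockout libraries varied widely over days, with day 0 lowest in both knockout lines.

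Tmod2, a tropomodulin that caps actin filaments in neurons, had 46.7 to 65.9 CPM in WT#1-4, 13.8 to 36 in the knockouts and 1.57 to 12.7 in WT#20D-17. None of the 18 tested genes on a list of neural and neural crest genes was a member. Tek, the angiopoietin receptor of endothelium, had 246 to 380 CPM in WT#1-4, 82.9 to 126 in Nox4-/-#5-8, 144 to 236 in Nox4-/-#5-23 and 0.861 to 53.8 in WT#20D-17. Thrb, a thyroid hormone receptor, had 10.7 to 20.6, 3.8 to 8.06, 7.52 to 9.59 and 0.164 to 0.945 CPM in that order of lines. Shox2, a homeobox factor of limb and heart development, had 3.07 to 7.35, 0.819 to 2.59, 0.4 to 0.892 and 0.0525 to 0.287. For Vegfd the ranges were 6.25 to 15.7, 3.25 to 5.91, 3.51 to 6.23 and 0.785 to 1.72, so that WT#1-4 on day 14 and Nox4-/-#5-23 on day 14 nearly met.

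Other genes with WT#1-4 highest were Tmem64, Macrod2, an enzyme that removes ADP-ribose, Insc, which orients the mitotic spindle, Ms4a4b, Ncdn, Sike1, Serpinb3a, a serpin, Popdc3, a cyclic AMP-binding membrane protein, Borcs5, which positions lysosomes, Slc35d1 and Sh2d6, together with the genes Gm15987, Gm31562, Gm2065, Gm33699 and 4933439N14Rik, which are not annotated as protein coding. Gm31562 had 71.1 to 174 CPM in WT#1-4, 2.95 to 9.32 in Nox4-/-#5-8, 0.595 to 1.51 in Nox4-/-#5-23 and at most 1 count in WT#20D-17. Gm15987 had 8.2 to 10.4, 2.37 to 3.66, 1.93 to 2.87 and at most 0.345 CPM. Both kept the knockouts well clear of each wild type line. In 9 of the 37 genes WT#20D-17 had 3 counts or fewer in every library, and in 4 of them (Nyap2, Gm33699, Ms4a4b and Serpinb3a) it had none. At low counts the order next to WT#20D-17 was not resolved in every library. The lowest knockout library had 1 count in Serpinb3a and 3 in Ms4a4b. In Popdc3 it had 7 counts, and the highest WT#20D-17 library had 6.

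Of the 16 genes with WT#20D-17 highest, Gm4322 had the widest separation. It is annotated as a pseudogene on chr1:150268926-150269261. WT#1-4 had 0 counts on every day, which allows up to 3 counts in each library. Nox4-/-#5-8 had 5.39, 4.91, 3.86, 3.03 and 4.45 CPM, Nox4-/-#5-23 1.78, 1.74, 1.97, 1.47 and 0.766, and WT#20D-17 33, 40, 52.4, 56.3 and 27.8. The WT#20D-17 mean was 14.3 times the knockout mean, and the knockout mean was at least 24.2-fold higher than WT#1-4, taken at 3 counts in each library. Its transcript was 99.3% identical to that of Bex4 over 88.7% of its length, so that the counting could divide reads between these genes. Bex4 itself had 9.02 to 17.9 CPM in WT#1-4, 9.44 to 14.2 in Nox4-/-#5-8, 2.22 to 6.39 in Nox4-/-#5-23 and 65.2 to 122 in WT#20D-17, so its knockout libraries were not above those of WT#1-4. Gm4322 is reported as uncertain for this reason.

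Pced1b, which encodes a protein of the PC-esterase family on chr15:97247107-97385680, had 0.912, 1.03, 1.45, 0.758 and 0.595 CPM in WT#1-4. It had 3.87, 2.85, 3.36, 2.84 and 10.5 CPM in Nox4-/-#5-8, 4.09, 4.4, 5.1, 8.39 and 9.26 in Nox4-/-#5-23 and 35.4, 28.9, 31.6, 34 and 23.3 in WT#20D-17. The knockout mean was 5.76 times that of WT#1-4, and the WT#20D-17 mean was 5.60 times that of the knockouts, so the knockouts stood near the middle. Sall1, a zinc finger factor of kidney and neural development, had 0.843 to 9.06 CPM in WT#1-4, 10.9 to 23.3 in Nox4-/-#5-8, 14.7 to 22.5 in Nox4-/-#5-23 and 52.1 to 160 in WT#20D-17. Inpp5d, the SHIP1 phosphatase of blood cells, had 0.496 to 1.03, 1.59 to 3.18, 2.27 to 4.26 and 8.39 to 51.1 CPM. Slc7a7, a light chain of the y+L amino acid transporter, had 8.73 to 13.9, 22.1 to 48.7, 17.2 to 40.5 and 77.8 to 282. The knockout mean was 3.19 times that of WT#1-4 in Sall1, 3.46 in Inpp5d and 3.25 in Slc7a7, and the WT#20D-17 mean was 5.58, 9.01 and 5.38 times that of the knockouts, so the step to WT#20D-17 was the larger in all 3.

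**Figure D2:**
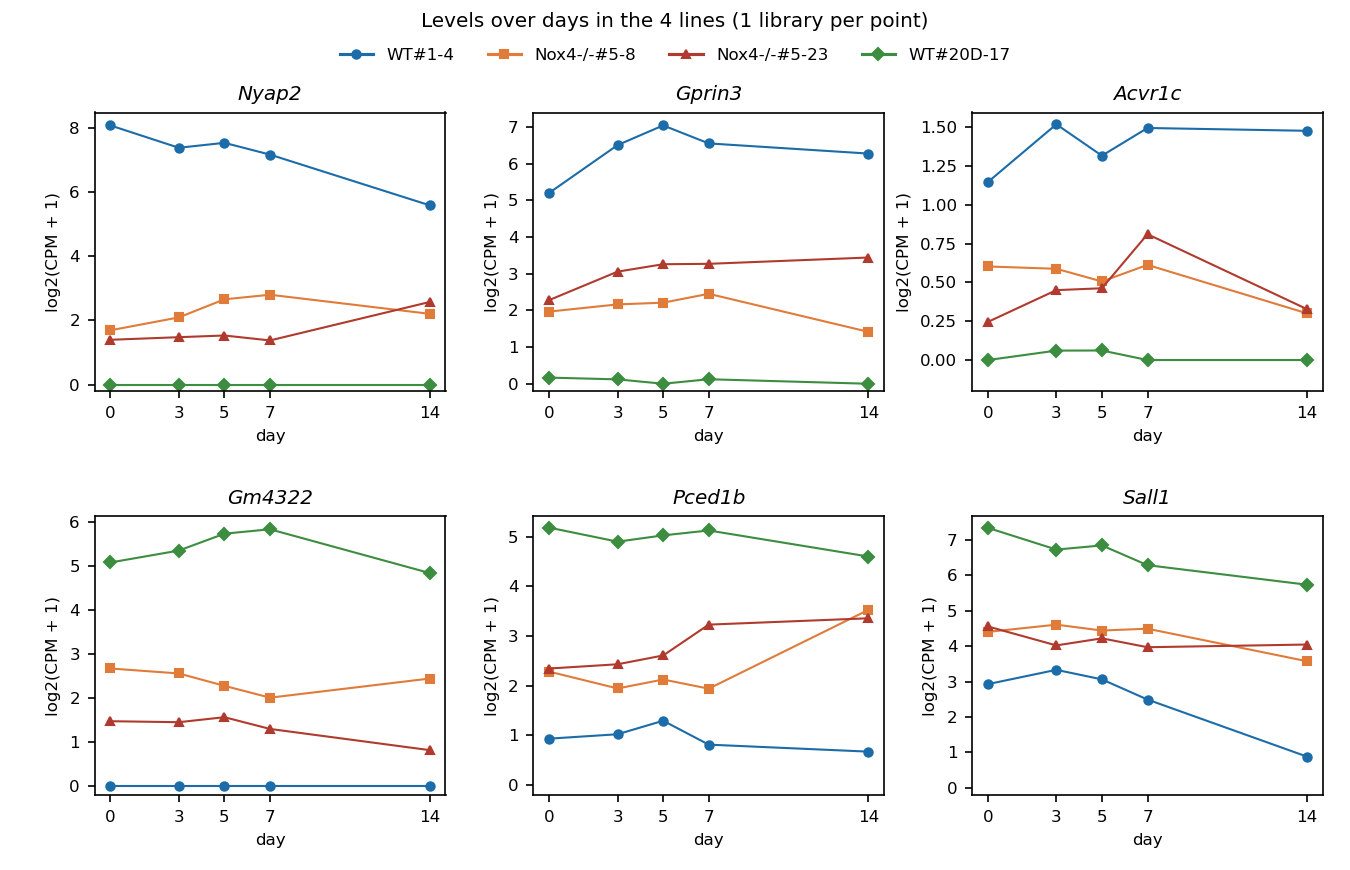
Levels of 6 of the genes over days 0, 3, 5, 7 and 14 (horizontal axis, day; vertical axis, log2(CPM + 1); 1 library per point, lines join the libraries of a cell line). Nyap2, Gprin3 and Acvr1c run from WT#1-4 at the top to WT#20D-17 at or near 0, and Gm4322, Pced1b and Sall1 run in the reverse order, with both knockout lines between them on each day.

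The other protein-coding genes of this order were 1500009L16Rik, Rasal1, a Ras GTPase-activating protein, Cryl1, a crystallin-like enzyme of sugar metabolism, Lrrc8d, a subunit of volume-regulated anion channels, Sfmbt2, Rps6ka1, the kinase RSK1, Mob4, a kinase-associated scaffold, Slc9a3r1 and the zinc finger genes Zfp981 and Zfp345. Rasal1 had 0.198 to 0.798 CPM in WT#1-4, 1.19 to 4.24 in the knockouts and 5.08 to 13.3 in WT#20D-17. Lrrc8d had 5.55 to 10.6, 15.9 to 35.3 and 38 to 72.6 CPM. Zfp981 had no count in WT#1-4 and 0.367 to 0.666 CPM in the knockouts, against 1.91 to 19.8 in WT#20D-17. Sfmbt2, an imprinted gene of the Polycomb group that is expressed from the paternal copy, was the only member among 60 tested imprinted genes. It had 1.09 to 3.84 CPM in WT#1-4, 3.94 to 12.1 in Nox4-/-#5-8, 4.19 to 6.91 in Nox4-/-#5-23 and 74.9 to 244 in WT#20D-17. Sfmbt2, Zfp345 and Mob4 no longer met the rule when CPM were scaled by upper quartile factors or by library totals alone. Borcs5, Slc35d1, Lrrc8d and Rps6ka1 did not meet it with upper quartile factors, nor did Sike1, Tek, Vegfd and Slc9a3r1 with library totals alone. Of the 16 genes, Rps6ka1 and Mob4 had the smallest differences between the wild type means (log2), with 36.1 to 47.8, 68.3 to 104 and 106 to 177 CPM for Rps6ka1 and 37.1 to 41.4, 41.9 to 50 and 50.9 to 65.4 for Mob4. Gm48161, annotated as an RNA within an intron and on the strand of its host, had 0.149 to 0.607, 0.65 to 2.32 and 14.4 to 19.9 CPM.

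The position of the knockouts was expressed as a percentage of the way from the WT#1-4 mean (0) to the WT#20D-17 mean (100) on the scale of log2(CPM + 1). It ranged from 16.9% in Gm48161 and 17.6% in Mbnl1 to 87.0% in Popdc3 and 87.1% in Mylk4, with a median of 43.5%. In 30 of the 53 genes (56.6%) the knockouts were nearer to WT#1-4. Of the other 4605 genes in which the wild type lines did not overlap, they were nearer to WT#1-4 in 4069 (88.4%), with a median position of 0.717%. With a pseudocount of 0.1, chosen after the values were seen, Mylk4 was at 69.0%, Popdc3 at 74.0% and Gm48161 at 27.6%, and 36 genes (67.9%) were nearer to WT#1-4, among them Acvr1c, which moved from 65.9% to 46.5%, while Gm4322 moved from 34.6% to 54.4%. The position of genes under a few CPM therefore depends on the pseudocount of 1. The rule asks for positions inside the interval, so the contrast with other genes is a description of what it selected. The median position was 50.4% with WT#1-4 highest and 40.5% with WT#20D-17 highest, and it changed little with the day, from 42.1% to 47.5% for Nox4-/-#5-8 and from 41.8% to 49.2% for Nox4-/-#5-23. The rule fixes a position inside the interval on each day.

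**Figure D3:**
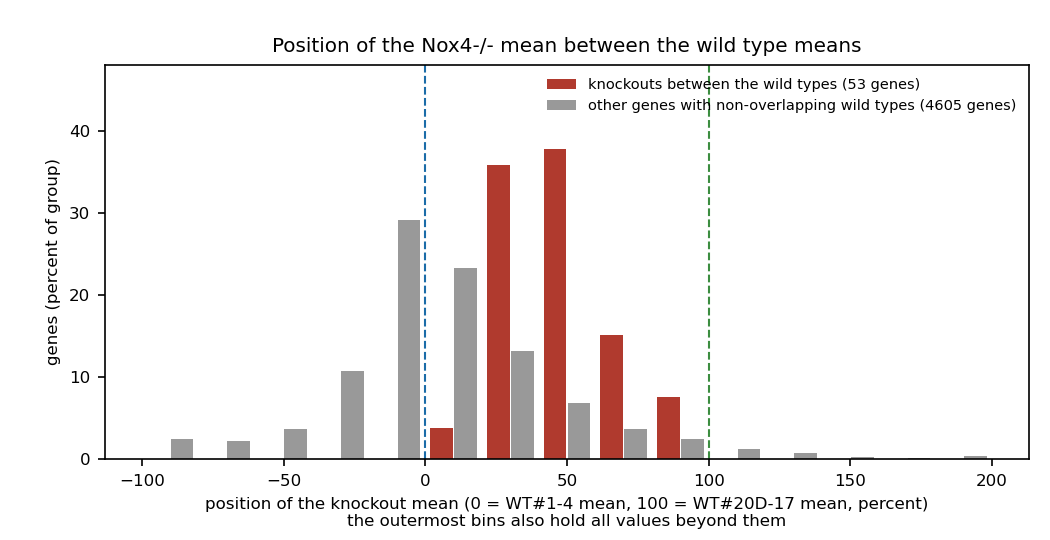
Position of the mean of the Nox4-/- lines between the mean of WT#1-4 (0) and of WT#20D-17 (100), in percent on the horizontal axis, as the share of genes in each bin of 20; red bars are the 53 genes and grey bars the 4605 other genes in which the wild type lines did not overlap. The grey bars pile up around 0, with a median of 0.717%, while the red bars spread over the interval, with a median of 43.5%.

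The rule used the contrasts of each wild type line with the knockouts, and their calls are given for size only. With edgeR's exact test, which the study also used, over days pooled and at an FDR under 0.01, 50 of the 53 genes were called between WT#1-4 and the knockouts (9.32% of all tested genes), all but Sike1, Borcs5 and Mob4. Between WT#20D-17 and the knockouts 52 were called (39.8% of all), all but Mob4. When both wild type lines were pooled against the knockouts, 4 were called (19.2% of all), and all 4 were lower in the knockouts. These were Mylk4 and Popdc3, with WT#1-4 highest, and Sfmbt2 and Gm48161, with WT#20D-17 highest, each a gene in which 1 wild type line stood far above all others. This was not particular to the 4. In Nyap2 and Gm31562 the WT#1-4 mean was 50.1 and 36.9 times the knockout mean. Neither was called by the pooled exact test (FDR of 0.0105 and 0.0154). At an FDR under 0.001, the threshold in the study's methods, 41 genes were called against WT#1-4 (6.13% of all), 51 against WT#20D-17 (32% of all) and 1, Sfmbt2, against both (12.9% of all). Since the rule puts the wild types on opposite sides of the knockouts, nothing is read from these counts.

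The knockout lines were compared with each other in a fit with line and day as terms, by edgeR's quasi-likelihood test. Of the 53 genes, 3 were called (3.83% of all tested genes), all lower in Nox4-/-#5-23. Gm31562 fell by 2.09 ± 0.30 (SE) on the log2 scale from Nox4-/-#5-8 to Nox4-/-#5-23 (FDR of 0.000367) and Gm4322 fell by 1.53 ± 0.27 (FDR of 0.00464). Sh2d6, which encodes a protein with an SH2 domain, fell by 2.18 ± 0.44 (FDR of 0.00529), from 2.32 to 8.86 CPM in Nox4-/-#5-8 to 0.372 to 2.22 in Nox4-/-#5-23. In all 3 genes Nox4-/-#5-23 was lower on each of the 5 days. Gm31562 kept its call without any 1 of the days (FDR of 0.00163 to 0.00962). Gm4322 lost its call without any 1 of them (0.0117 to 0.0372) and Sh2d6 without any day but day 0 (0.0105 to 0.0514, against 0.0035 without day 0).

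The knockout lines did not overlap in 9 of the 53 genes (8.31% of all tested genes). In 10 of the 53 genes Nox4-/-#5-23 was higher on every day and in 10 Nox4-/-#5-8 was, and their means were ordered with Nox4-/-#5-8 nearer to WT#1-4 in 27 genes and Nox4-/-#5-23 nearer in 26. Neither line was thus regularly the closer one to a given wild type. Osbpl1a and Tmem64 were higher in Nox4-/-#5-23 on all 5 days, by 0.54 ± 0.14 and 0.56 ± 0.14 on the log2 scale, with FDRs of 0.0191 and 0.0169, just outside the threshold. Shox2 and Ms4a4b, a membrane-spanning protein of lymphocytes, were lower in Nox4-/-#5-23 on all 5 days, with FDRs of 0.0453 and 0.0522.

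Over days, with the 4 lines as the replicates of a day, none of the 53 genes was called by the quasi-likelihood F test (19.5% of all tested genes were). An unadjusted p under 0.05 was found for 9 of them (41.7% of all tested genes), and the likelihood ratio test of DESeq2 called 3, Mcur1, Tmod2 and Insc (30.6% of all). Since the rule bounds the level of the knockout lines on every day, nothing is read from this count. Between day 14 and day 0 no member was called higher (15.9% of all tested genes were) and 4 were called lower (15.1% of all). For both directions together 10 members had an unadjusted p under 0.05 (8747 of the 16516 tested genes did), and DESeq2 called 2 higher, Gm33699 and Insc (21% of all). Among the protein-coding genes higher on day 14, Insc had the lowest FDR, at 0.0157 (log2 fold change 1.20 ± 0.37 SE). Its CPM was higher on day 14 than on day 0 in all 4 lines, though in WT#20D-17 it had 4 counts on both days.

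The 4 that fell were Tmod2, Mcur1, Sall1 and Ptprv. Tmod2 fell by 1.33 ± 0.26 (SE) on the log2 scale from day 0 to day 14 (FDR of 0.000801), from 65.9 to 46.7 CPM in WT#1-4, 33.7 to 13.8 in Nox4-/-#5-8, 36 to 18.4 in Nox4-/-#5-23 and 12.7 to 1.57 in WT#20D-17. Mcur1 fell by 0.86 ± 0.19 (FDR of 0.00175), Sall1 by 1.25 ± 0.33 (FDR of 0.00626) and Ptprv by 1.04 ± 0.28 (FDR of 0.00632). All 4 were lower on day 14 than on day 0 in each of the 4 lines. Tmod2 and Mcur1 kept their calls without day 3, 5 or 7. Without day 5 or 7, Sall1 lost its call (FDR of 0.0152 and 0.0166), and without day 3 or 7 Ptprv did (0.0169 and 0.017).

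**Figure D4:**
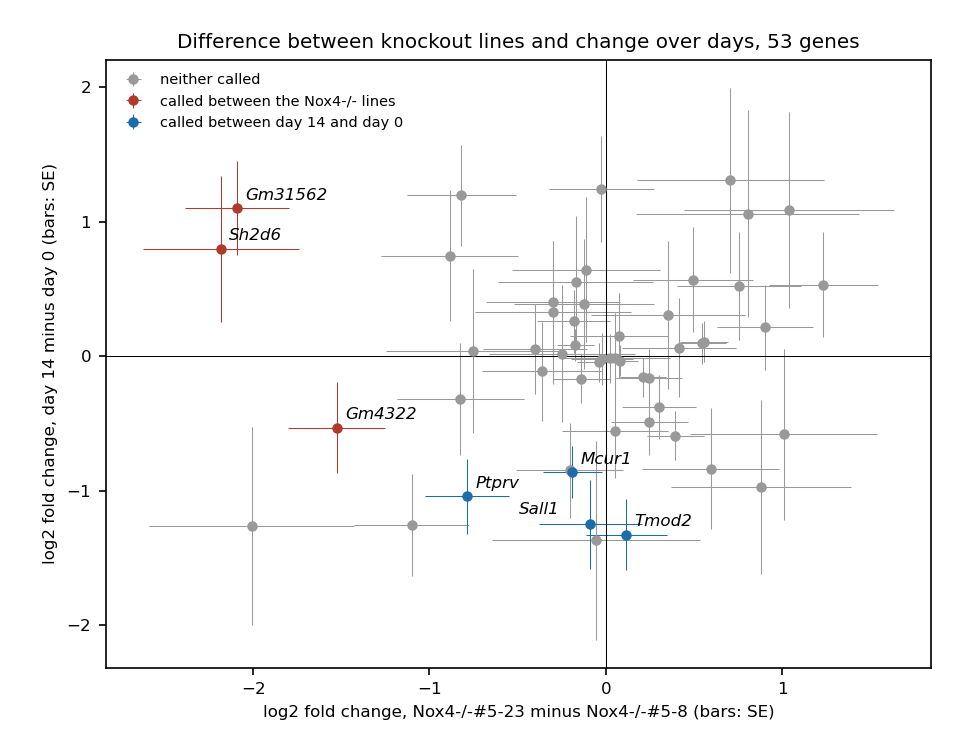
Each of the 53 genes by its log2 fold change between the knockout lines (horizontal axis, Nox4-/-#5-23 minus Nox4-/-#5-8) and between day 14 and day 0 (vertical axis), with standard errors as bars. The genes spread to both sides of 0 on each axis; the 3 genes called between the knockout lines are all on the left and the 4 called between day 14 and day 0 are all in the lower part.

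Whether the knockout genotype changed the course over days was tested as an interaction with the line kept in the fit. No member was called (0.0121% of all tested genes were, 2 genes), with 10 at an unadjusted p under 0.05 (18.9%, beside 7.91% of all tested genes). WT#20D-17 was also set against the other 3 lines, a contrast chosen after these data were seen. In 4 members its course differed (5.74% of all tested genes), and these were Tek, Sfmbt2, Gm15987 and Slc7a7.

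Tek had 1.35, 0.861, 16.8, 35.6 and 53.8 CPM on days 0, 3, 5, 7 and 14 in WT#20D-17. In the other lines day 14 was between 82.9 and 246 CPM and day 0 between 118 and 282. Sfmbt2 went from 74.9 CPM on day 0 to 244 on day 14 in WT#20D-17. It went from 3.84 to 1.09 in WT#1-4, 10.9 to 3.94 in Nox4-/-#5-8 and 6.91 to 4.19 in Nox4-/-#5-23. Slc7a7 had 272, 171, 162, 282 and 77.8 CPM in WT#20D-17, where day 7 was the highest and day 14 the lowest. From day 0 to day 14 it went from 22.1 to 48.7 in Nox4-/-#5-8, 17.2 to 32.4 in Nox4-/-#5-23 and 8.93 to 8.73 in WT#1-4. Tek and Slc7a7 were nearest to the knockouts on day 14 in WT#20D-17, without reaching them, and Sfmbt2 was farthest from them on that day. Gm15987 had at most 0.345 CPM in WT#20D-17, reached on day 3, and at most 0.0525 on the other days. Gm15987 and Slc7a7 also lost their flags without any 1 of the days, and Sfmbt2 without any day but day 5. Tek kept its flag whichever day was left out. Each time there was 1 WT#20D-17 library on each remaining day, so this does not decide the question either.

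**Figure D5:**
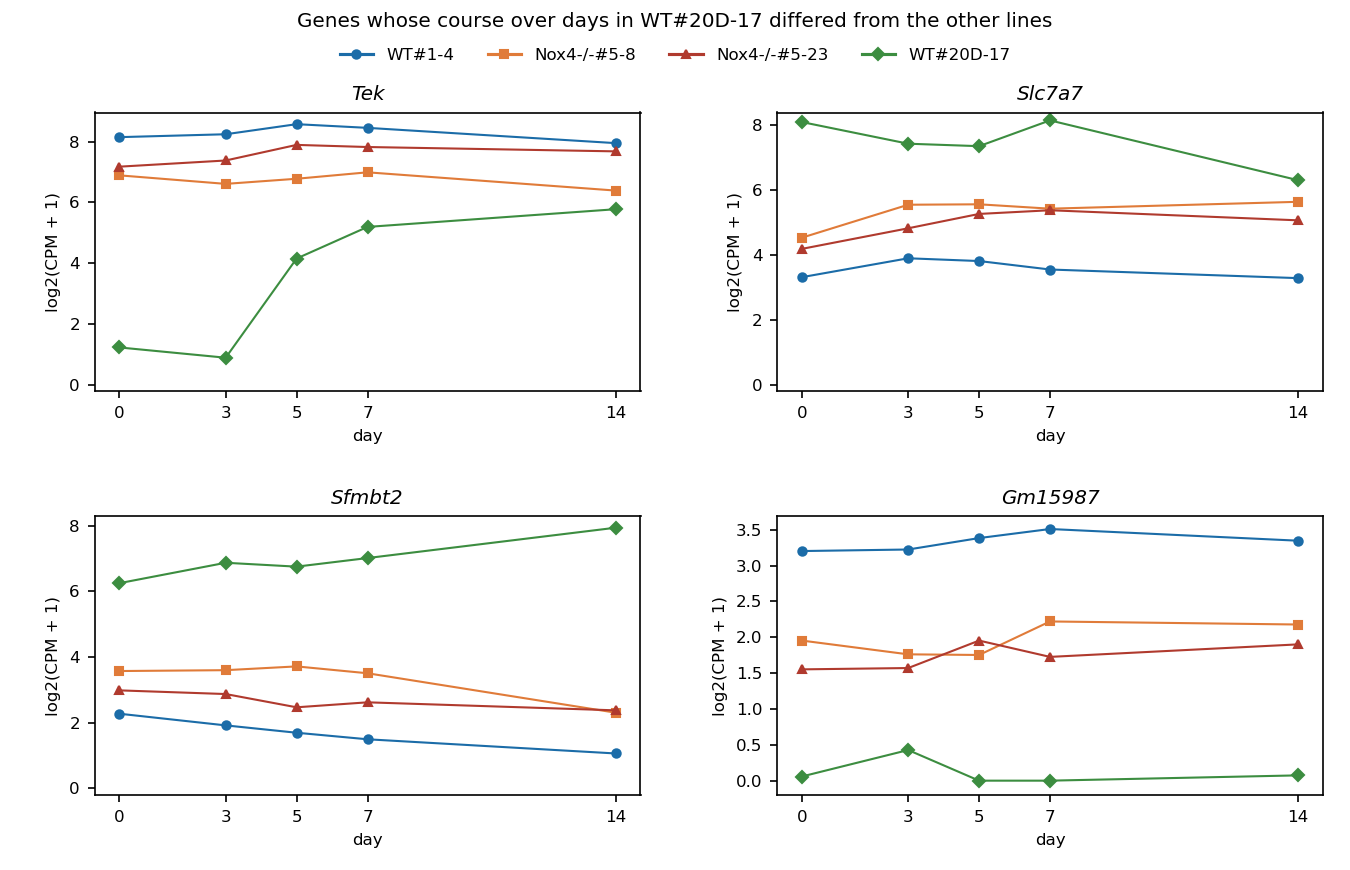
Levels over days of Tek, Sfmbt2, Slc7a7 and Gm15987, flagged for their course in WT#20D-17, which had no replicate library on any day. Axes are day (horizontal) and log2(CPM + 1) (vertical), with 1 library per point. In Tek the WT#20D-17 libraries climb from 1.35 to 53.8 CPM while the other lines stay at 82.9 CPM or more, in Sfmbt2 they climb away from the other lines, in Slc7a7 they are highest on day 7 and lowest on day 14, and in Gm15987 they stay near 0.

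Cell type markers moved with the lines. From day 0 to day 14 the summed level of 8 pluripotency genes went from 3760 to 97.2 CPM in WT#20D-17 and from 5800 to 1290 in WT#1-4. Nox4-/-#5-8 had sums of 3240 CPM on day 0 and 1980 on day 14, and Nox4-/-#5-23 of 4600 and 3820. Outside WT#20D-17 most of the sum was Pou5f1, which encodes Oct4, one of the transduced factors, with 5760 CPM on day 0 in WT#1-4 and 3080 and 4390 in the knockout lines, while in WT#20D-17 it had 1140. Of the other 7 genes, 4 were nearly absent outside WT#20D-17 on that day. Nanog, a core factor of pluripotency, had 0.038 CPM in WT#1-4 and 0.359 and 0.149 in the knockout lines, against 383 in WT#20D-17, and Dppa5a had 0.418, 0.12 and 0 against 900. Esrrb had at most 0.038 CPM in these lines on day 0 against 123 in WT#20D-17, and Zfp42 had 0 on every day against 41.6 on day 0. Utf1 had 5.24 CPM in WT#1-4 and 0 in both knockout lines on day 0 against 311, and Tdgf1 had 0.646, 2.63 and 0.26 against 669. Sox2, also a transduced factor, had 33.6, 154, 202 and 195 CPM on day 0 in WT#1-4, Nox4-/-#5-8, Nox4-/-#5-23 and WT#20D-17. The sum of 6 endoderm genes was 129 to 1740 CPM in WT#20D-17, 0.076 to 4.55 in WT#1-4 and at most 3.27 in the knockout lines. That of 6 mesoderm genes was 40.3 to 252 in WT#20D-17, 2.43 to 16.2 in WT#1-4 and at most 7.91 in the knockout lines. In both wild type lines the endoderm and mesoderm sums were lowest on day 0, at levels far apart. The sum of 10 fibroblast genes, which feeder cells also express, had medians of 244 CPM in WT#1-4, 45.9 and 31.6 in the knockout lines and 455 in WT#20D-17, where it went from 27.1 to 2980. The sum of 6 neural genes was 321 to 543 CPM in WT#1-4, 154 to 185 and 109 to 183 in the knockout lines and 53.2 to 279 in WT#20D-17. Its genes did not share 1 order. On day 0 Map2 had 196 CPM in WT#1-4, 13.4 and 8.7 in the knockout lines and 10.4 in WT#20D-17. Pax6 had 5.66, 39.8, 26.9 and 1.19 CPM in that order of lines. Sox1 was also highest in WT#1-4 on that day, Nes in Nox4-/-#5-23, and Otx2 and Tubb3 in WT#20D-17. In bulk samples fewer cells of a type and less RNA per cell cannot be told apart. The part of these differences in the 53 genes was not tested.

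By position in the genome, the members were spread over 18 chromosomes, with 7 each on chromosomes 1 and 4, 5 on chromosome 3 and none on 12 and 16. No pair of them lay within 100 kb. All 5 genes on chromosome 3 and all 4 on chromosome 6 had WT#1-4 highest. The median log2 difference of each chromosome was taken relative to the median over all tested genes. On chromosome 14 it was 0.42 for WT#20D-17 minus WT#1-4, and on chromosome 5 it was 0.48 for Nox4-/-#5-23 minus Nox4-/-#5-8. The other chromosomes with at least 100 tested genes had such values between -0.16 and 0.16 in these contrasts. Slc7a7, Cryl1 and Thrb are on chromosome 14 and Rasal1 and Lrrc8d on chromosome 5, and without these chromosomes 48 members remained. Of 97 neighbouring tested genes that did not overlap a member, the wild type lines were apart in 31 (32.0%, beside 28.2% of all tested genes), and 24 of these (77.4%) had the direction of the member, beside 73.1% of all adjacent pairs of such genes. Both shares are near those of all genes, so the neighbourhood of the members was not unusual in this respect.

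By kind, 45 of the 53 genes (84.9%) were protein coding, beside 86% of all tested genes. No member was found on the lists of pluripotency genes (30 tested), endoderm genes (24), mesoderm and heart genes (26), germ cell and meiosis genes (20), fibroblast and feeder genes (22), NADPH oxidase subunits (7), redox defence genes (46), enzymes of DNA methylation (15), X inactivation and Y chromosome genes (13) or Wnt and FGF genes (55). Families defined by name gave 2 of 384 genes named Zfp (0.521%), 2 of 264 solute carriers, Slc7a7 and Slc35d1 (0.758%), and 6 of 1684 genes named Gm (0.356%), beside 0.321% of all tested genes. The name families for histones, MHC genes, ribosomal proteins, Hox genes, glutathione transferases, cytochromes P450, collagens, claudins and keratins gave none.

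For some members the reads could belong in part to another gene. A gene with a mean count of at least 10 overlapped 9 members, on the opposite strand in 8 cases, and whether the counting used the strand that the kit marks is not given in the sources used here. Clec2g, opposite Gm15987, had 3.08 to 6.6 CPM in WT#1-4, 0.0798 to 0.421 in Nox4-/-#5-8, at most 0.0888 in Nox4-/-#5-23 and 0 in WT#20D-17. A930017M01Rik, opposite Sybu, had 11.7 to 39, 2.79 to 15.3, 0.186 to 3.06 and at most 0.369 CPM. These ran in the direction of the member that they overlap. Amigo2, opposite Pced1b, did not, with 0.834 to 2.58 CPM in WT#1-4, 9.14 to 25.1 and 21 to 51.5 in the knockout lines and 3.52 to 9.01 in WT#20D-17. The others were Oxa1l (with Slc7a7), Rsrc1 (Shox2), AC102055.1 (Osbpl1a), Flrt3 (Macrod2), Hmgn3 (Gm2065) and, on the same strand, Agtr1a (Gm48161). AC102055.1 averaged 2.35 CPM in WT#1-4, 0.692 and 0.837 in the knockout lines and 0.239 in WT#20D-17, the order of Osbpl1a. Between the wild type means, Oxa1l, Rsrc1 and Hmgn3 also had the direction of their member, and Flrt3 and Agtr1a did not. Besides Gm4322, 5 members had a transcript at least 90% identical to that of another gene over at least 50% of its length, and these were Gm48161, Zfp981, Serpinb3a, Macrod2 and Ms4a4b. Gm17771, the gene most like Zfp981, had no count in WT#1-4 or in either knockout line and 0.945 to 5.9 CPM in WT#20D-17. The genes most like Serpinb3a, Ms4a4b, Macrod2 and Gm48161 had at most 0.0746, 0.114, 0.126 and 0.328 CPM in any library. These members are uncertain as well.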

How the data were processed

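The authors trimmed 101-base paired reads of a stranded mRNA kit with fastx_toolkit, aligned them to mm10 (GRCm38, Ensembl 97) with STAR 2.6.0c and deposited RSEM 1.3.1 expected counts for 55573 genes in 20 libraries, 9.92% of them with decimals. The strand setting is not given in the sources used here. Sample titles give the last day as day 14, a protocol text as day 10.

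Expected counts were rounded and scaled with TMM (edgeR 4.0.16, R 4.3.3). Quasi-likelihood tests used line and day as terms over 16516 genes with a mean count of at least 10, and exact tests the 33860 genes with a nonzero value, all with Benjamini-Hochberg adjustment and an FDR under 0.01. DESeq2 1.42.0 was an alternative. Tests were checked on simulated data. Genes were named by GENCODE M21, which held 55480 of the IDs. Similar transcripts were found with BLAST+ 2.17.0.

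The members and lists were chosen with earlier results of these data known. Genes picked for naming were Gm4322, Acvr1c and Nox4, and in each order those with the largest smaller gap (10 protein coding, 2 others). Also picked were the members with the lowest FDR in each direction, those on a list, and 3 on either side of the threshold. Some of these, such as 1500009L16Rik, Cryl1 and Zfp345, are given without CPM. Other members are given by range or name, and 2 members, counted throughout, are not reported individually here.

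The day pairs the libraries across lines by design. Same-day deviations from the line means had a mean correlation of 0.327 (30 pairs, from -0.226 to 0.805), so the day was a term of the quasi-likelihood tests. The exact tests pooled the days.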

Additional observations from a re-analysis of the deposited data

Results flagged for a closer look

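Each of the 201 sets of 5 days that 1 line gave for 1 of the 53 genes, with more than 3 counts on some day, was searched for a day that stood apart from the other 4 by Dixon's criterion at the 95% level on the scale of log2(CPM + 1). Such a day was found in 18 sets (8.96%), with 10 high days and 8 low ones. The criterion's rate of about 1 in 20 holds for independent draws of the same kind. Here the values are ordered days and the sets share the same 20 libraries, so the share is not set against that rate.

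Day 14 of Nox4-/-#5-8 stood apart most often. There Mbnl1 was low at 138 CPM (194 to 220 on the other days), Sall1 at 10.9 (20.1 to 23.3), Sfmbt2 at 3.94 (10.4 to 12.1) and Ptprv at 34.1 (44.7 to 46.4). In the same library Ncdn was high at 97.7 CPM (57.7 to 65) and Pced1b at 10.5 (2.84 to 3.87). On day 0 of this line Slc7a7 was low at 22.1 CPM (41.9 to 48.7) and Slc35d1 high at 38.5 (29.6 to 32), and on day 5 Mylk4 was high at 0.803 (0.371 to 0.399).

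In Nox4-/-#5-23, day 14 was high for Nyap2, at 4.96 CPM (1.6 to 1.89 on the other days), and low for Rfxap, at 25.3 (35.9 to 39.9). Day 0 of that line was low for Insc, at 0.372 CPM (1.42 to 1.82), and high for Gm48161, at 1.34 (0.802 to 0.888). In WT#1-4, day 14 was high for Pdp1, at 51.3 CPM (22.3 to 26), and low for Ms4a4b, at 1.83 (16.2 to 29.1). In WT#20D-17, Borcs5 was high on day 0, at 4.18 CPM (2.84 to 3.18), and Gm15987 and Gm2065 were high on day 3, at 0.345 (at most 0.0525) and 0.172 (0.041 to 0.0525).

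In 4 genes the course over days in WT#20D-17 differed from that in the other lines by edgeR's quasi-likelihood test of the interaction, with FDRs of 3.94e-05 for Tek, 0.00766 for Sfmbt2, 0.00862 for Gm15987 and 0.00894 for Slc7a7.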

How the results depend on the processing

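The number of genes with the knockouts between the wild types was 53 and stayed within 47 to 59 under other scalings, count filters and without rounding, and 42 of the 53 genes were found under each of 3 other scalings and without rounding. It was 63 to 180 without 1 of the days in each line (180 without day 14, 115 without day 0), 123 without Nox4-/-#5-8 and 177 without Nox4-/-#5-23. Fewer libraries make the rule easier to meet by construction, and why the count varied with the day left out was not tested.

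Calls between the knockout lines numbered 3, with 8 at an FDR under 0.05, 8 by DESeq2 (8.26% of all tested genes) and 1 to 4 without a day. Calls over days numbered 0, with 2 at an FDR under 0.05, 3 by DESeq2, 1 with every nonzero gene tested and 0 to 1 without a day. Members higher on day 14 numbered 0, with 3 at an FDR under 0.05 and 2 by DESeq2. Members lower on day 14 numbered 4, and 2 to 3 without day 3, 5 or 7. Calls of another course in WT#20D-17, which has 1 library a day, numbered 4, with 9 at an FDR under 0.05, 10 by DESeq2 (17.4% of all) and 1 to 3 without a day. The pooled contrast of genotypes gave 4, with 1 at an FDR under 0.001, 2 by the quasi-likelihood test, 8 by DESeq2 and 2 to 4 without a day. The cause of these moves was not tested. Calls against WT#1-4 (50) were 36 to 48 without a day, and those against WT#20D-17 (52) were 50 to 52.

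Without a replicate block, 2 members were called between the knockout lines and 0 over days. In quasi-likelihood tests against WT#1-4, WT#20D-17 and both, 49, 51 and 3 were called with the day as a replicate block and 46, 51 and 2 without it, so the pairing by day moved no count by over 1.5 times. The difference of the wild type lines, whose direction the rule fixes, moved by more than 1 SD in 32 genes with a pseudocount of 0.1. Genes with few counts in 1 wild type line, such as Acvr1c, are limited by depth.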
